A study of Mus musculus with 20 samples.

Results

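The transcripts described here are those that CMP013 moved the same way in the liver of mice with and without the pregnane X receptor (PXR). CMP013 is an inhibitor of BACE1, a protease studied as a drug target in Alzheimer's disease. All 20 arrays of the series entered, 1 array per mouse in 4 groups of 5: wild-type (WT) C57Bl/6 mice given vehicle or CMP013, and C57Bl/6NTac mice with the PXR gene knocked out (PXR-KO) given vehicle or CMP013. All mice were males, 9 weeks old at the start. CMP013 was given by gavage at 150 mg/kg/day, 1 dose every 24 h, in 2% hydroxypropylmethylcellulose with 1% Tween 80, the vehicle alone was given to the controls, and livers were taken at 96 h after a fast of 3 to 4 h. The labels give the knockout's strain as C57BL/6 in 1 field and C57BL/6NTac in another, so the receptor and the strain background cannot be told apart. The knockout is not restricted to a cell type in the labels, and whole liver was measured, so fewer cells of a type and less RNA per cell cannot be told apart. Each value compares an animal with the average of its genotype's 5 vehicle animals, as a ratio given here on the log2 scale, so a value of 1 is a doubling relative to vehicle and no level of expression is known. Whether the arrays carry liver markers, and how the knockout differs from WT under vehicle, were not analysed here for that reason.

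PXR is a nuclear receptor that binds drugs and other foreign chemicals and switches on genes that oxidize, conjugate and export them. It shares target genes with a related receptor, the constitutive androstane receptor (CAR), which can act in its absence. Beyond drug handling, a liver exposed to a compound can change through other known routes: the Nrf2 and heat shock factors answer reactive chemicals and damaged protein, sterol-sensing transcription factors answer loss of cholesterol, and growth hormone acting through STAT5 sets the difference between male and female liver. The averaged effect is the mean of the WT and the PXR-KO log2 fold change (CMP013 minus vehicle), and its question is which transcripts respond in the presence and in the absence of PXR. The 2 fold changes share no animals. A probe set is called where the limma adjusted p is under 0.05 over all 45037 probe sets, and shared where the averaged effect is called and both genotypes have the same sign. Because a large change in 1 genotype can carry an average, the stricter count of probe sets called in each genotype is given beside it.

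CMP013 moved 5993 of 45037 probe sets the same way in both genotypes on the averaged test. Of these, 3201 were higher with CMP013 (7.11% of all probe sets) and 2792 were lower (6.2%), and a further 922 passed the averaged test with opposite signs. Called in each genotype on its own and in the same direction were 851 probe sets, 446 higher (0.99%) and 405 lower (0.899%). Another 310 were called in each genotype in opposite directions. Of the 5993, 3150 were called in WT livers alone, 989 in PXR-KO livers alone, 851 in each and 1003 in neither, against 7923 (17.6%) called in WT and 3049 (6.77%) in PXR-KO livers over all. The test of the difference between the genotypes called 4936 probe sets (11%), 1155 of the 5993 and 95 of the 851. Over all probe sets, whatever the p, 51.4% had the same sign in both genotypes, so a shared sign by itself was about as frequent as an opposite one. Treated and vehicle animals did not overlap in either genotype, with the same sign, at 779 probe sets (1.73%), and at 310 with opposite signs.

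With 1 probe set for each of 18194 genes, 1537 genes were shared and higher (8.45%) and 1505 shared and lower (8.27%). Called in each genotype were 238 higher (1.31%) and 232 lower (1.28%), and the difference was called at 2475 (13.6%). These shares are the background for the gene groups below. Most shared changes were modest: 178 of the 5993 probe sets reached 2-fold in both genotypes, 100 higher and 78 lower. The median averaged effect over all genes was -0.0082 log2 units.

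**Figure D1:**
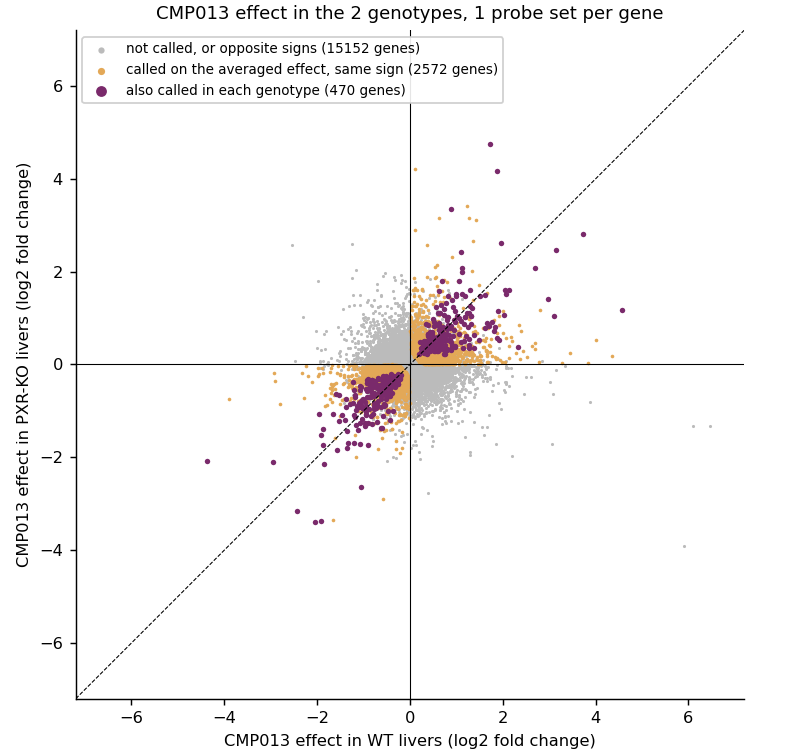
Each point is 1 gene (1 probe set per gene, 18194 genes), with its log2 fold change under CMP013 in WT livers on the x axis and in PXR-KO livers on the y axis. The 470 genes called in each genotype (purple) lie in the upper right and lower left around the dashed line of equal effect, the 2572 others called on the averaged effect (orange) include many near an axis, and the 3 genes furthest to the right, grey, were lower in PXR-KO livers.

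Among the vehicle animals, 4 stood apart from the rest: WT replicates 3 and 4 and PXR-KO replicates 2 and 4. On the second principal component, which holds 14.7% of the variance, they scored 49.2 to 73.3, against -8.23 to 15.6 for the other 6 vehicle animals and -57.2 to 22.8 for the 10 treated animals. Without them 3994 probe sets were shared and 268 were called in each genotype, in a fit with fewer control animals. No label separates these animals from the rest, and their part in each result was not tested beyond leaving them out. Counts without them are given beside the gene groups below where they matter.

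The largest shared increases included genes of growth arrest, transport and secreted proteins, a grouping made after their values were seen that leaves out several of them. By the size of the smaller of the 2 genotype effects, among genes whose treated and vehicle animals did not overlap, the 15 highest were Gadd45b, Slco1a4, Orm3, Wee1, Slc16a5, Nrg4, Ttc39a, Acnat2, Mmp12, Cxcl10, Bmper, Gsta2, Atp6v0d2, Alpl and Fam102a. All 15 were called in each genotype. None of them, and none of the 15 genes with the largest decreases, lost the averaged call in any of 27 other fits. They were picked on these same arrays for large, non-overlapping effects, so the kept calls are no independent evidence. Standard errors are the same in both genotypes since the spread was pooled over the 4 groups.

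Gadd45b, a stress-induced regulator of growth arrest and kinase signalling, rose the most. The 5 WT animals given CMP013 stood at 4.05, 5.03, 4.08, 4.88 and 6.64 log2 units against 0.39, 0.41, -0.66, -1.16 and 0.53 in their vehicle group, and the 5 PXR-KO animals at 3.01, 3.76, 3.32, 3.78 and 2.69 against -0.0031, -0.57, -0.26, 0.50 and 0.24. The highest WT value is at the limit of the deposited scale. The fold changes were 32.8 in WT and 10.1 in PXR-KO livers (log2 5.03 and 3.33, SE 0.43, adjusted p of the averaged effect = 9.08e-08), and the difference of 1.70 ± 0.61 (SE) did not pass the test (adjusted p = 0.0834). No treated animal overlapped a vehicle animal, as the selection required. Of its other probe sets, 1 gave 2.54 and 3.10, while the last gave 0.041 and -0.059, so the probe sets of this gene disagree.

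Slco1a4, an uptake transporter for bile acids and organic anions in the sinusoidal membrane, stood at 3.36, 3.76, 3.23, 3.69 and 3.51 in WT animals given CMP013 and at 2.84, 3.23, 2.33, 3.67 and 2.16 in PXR-KO animals. Vehicle animals lay between -1.45 and 0.25 in WT and between -0.35 and 0.37 in PXR-KO livers, far below every treated animal. It rose 13.2-fold and 7.05-fold (log2 3.72 and 2.82, SE 0.30, adjusted p = 2.84e-08). Orm3, an acute phase glycoprotein, rose 8.83-fold in WT and 5.56-fold in PXR-KO livers, with treated animals at 3.24, 3.11, 2.99, 3.01 and 2.58 and at 3.38, 2.26, 2.40, 2.11 and 1.75 and no vehicle animal above 0.47. Wee1, the kinase that holds cells before mitosis, rose 7.41-fold and 5.11-fold (log2 2.89 and 2.35, SE 0.30, adjusted p = 2.92e-07). Its other probe set gave log2 1.61 and 1.49, in the same direction.

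Nrg4, a secreted growth factor of the EGF family, showed nearly the same size in both genotypes. Treated WT animals stood at 1.82, 2.34, 1.51, 1.82 and 2.33 and treated PXR-KO animals at 1.29 to 2.41, against -0.75 to 0.31 and -1.04 to 0.53 in the vehicle groups. The log2 fold changes were 2.15 and 2.14 (SE 0.30), and the difference was 0.012 ± 0.43 (SE). Gsta2, a glutathione S-transferase of the alpha class, likewise gave 1.52 and 1.48 (SE 0.22), with a difference of 0.034 ± 0.31 (SE). Alpl, the tissue alkaline phosphatase measured in serum as a marker of cholestasis, gave 1.29 and 1.61 (SE 0.12) and had the smallest averaged adjusted p of the 30 genes, 1.27e-08.

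Among the others, Slc16a5, a monocarboxylate transporter, gave log2 2.25 and 2.99, with WT treated animals spread from 0.97 to 3.53. Cxcl10, a chemokine that draws T cells, gave 2.12 and 1.61, and Acnat2, an enzyme that joins fatty acids to amino acids, gave 1.96 and 2.61. Mmp12, the macrophage metalloelastase, was the only gene of the 15 whose genotypes differed by the test: it rose 3.30-fold in WT and 26.8-fold in PXR-KO livers (difference in log2 -3.02 ± 0.74 SE, adjusted p = 0.0132). The remaining 4 were Ttc39a (2.69 and 2.07), the BMP-binding protein Bmper (2.08 and 1.51), Atp6v0d2 (1.46 and 2.20), and Fam102a (1.28 and 1.61), all on the log2 scale.

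**Figure D2:**
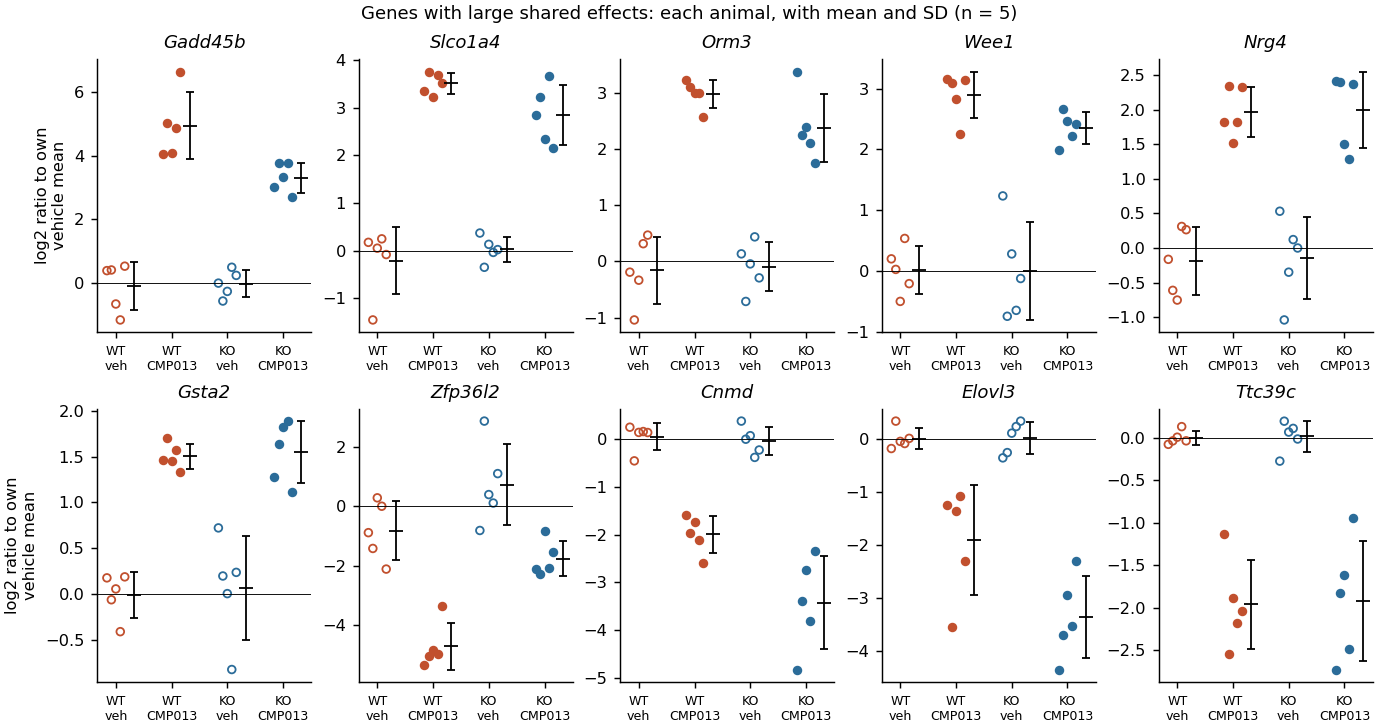
Log2 ratio of each animal to the vehicle mean of its genotype (y axis, scaled per gene) for 6 genes with large shared increases and 4 with large shared decreases, with open circles for vehicle, filled circles for CMP013, red for WT, blue for PXR-KO, and bars at the mean ± SD of 5 animals. In every panel the treated and vehicle animals of each genotype do not overlap, as the selection required, and Zfp36l2 has the widest spread among vehicle animals.

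The 15 largest shared decreases were Zfp36l2, Serpina4-ps1, Clec2h, Cnmd, Ttc39c, Elovl3, Arhgap9, Hsd3b5, Tmem114, Ptgds, Pde5a, Adh6-ps1, Cyp2u1, Coq8a and Olig1. Hsd3b5 was called in PXR-KO livers and on average but not in WT livers, and the other 14 were called in each genotype. The difference between genotypes was called for none of the 15 (limma, adjusted p from 0.0602 to 0.983), and 3 of the 15 had an unadjusted p under 0.05. Zfp36l2, an RNA-binding protein that destabilizes AU-rich messages, ranked first by 1 of its probe sets, log2 -3.90 and -2.50 (SE 0.59). Its vehicle animals ranged from -2.12 to 0.29 in WT and from -0.82 to 2.88 in PXR-KO livers, and in PXR-KO livers the highest treated animal (-0.82) came close to the lowest vehicle animal. The gene's 2 other probe sets did not pass the averaged test, with -0.35 and -0.083 and with -0.016 and -0.091.

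Cnmd, which codes for the cartilage and vessel protein chondromodulin, stood at -1.59, -1.96, -1.73, -2.10 and -2.58 in treated WT animals and at -4.83, -3.40, -2.75, -3.80 and -2.34 in treated PXR-KO animals, against -0.45 to 0.26 and -0.38 to 0.38 under vehicle. It fell 4.13-fold and 10.5-fold (adjusted p = 5.3e-07). Ttc39c fell by nearly equal amounts, log2 -1.96 and -1.94 (SE 0.27), and its other probe sets gave -1.02 and -1.06, and -1.85 and -2.14. Coq8a, a kinase-like protein needed to make coenzyme Q, fell by 1.36 and 1.68 on the log2 scale. Ptgds, a prostaglandin D synthase, gave -1.82 and -1.57, and Pde5a, the phosphodiesterase that breaks down cyclic GMP, gave -2.10 and -1.54. The lectin-like Clec2h gave -2.95 and -2.09, Arhgap9 -1.87 and -1.73, and the P450 Cyp2u1 -1.78 and -1.44. Tmem114 (-1.57 and -1.84), Olig1 (-1.35 and -1.81) and the pseudogene Adh6-ps1 (-1.92 and -1.52) complete the set. The pseudogene Serpina4-ps1 gave -4.58 and -2.48, with 1 treated WT animal at the limit of the deposited scale, and its probe set can share signal with related serpins.

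Sex-biased genes moved with their sex: where they changed, male-biased genes fell and female-biased genes rose. In the liver of male mice, pulses of growth hormone keep the male set on and the female set off through STAT5b. Of 21 male-biased genes measured, 12 were shared and lower, none higher, and 6 were lower in each genotype (12 lower without the 4 vehicle animals). The medians over the 21 were -0.45 in WT and -0.85 in PXR-KO livers, against -0.0011 and -0.015 over all genes. Of 22 female-biased genes, 8 were shared and higher, none lower, and 4 were higher in each genotype (7 higher without the 4 vehicle animals). Another 4 passed the averaged test with opposite signs, and the medians over the 22 were 0.56 in WT and 0.078 in PXR-KO livers.

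Elovl3, a fatty acid elongase, stood at -1.25, -3.55, -1.36, -1.07 and -2.30 in treated WT and at -4.35, -3.69, -2.93, -3.52 and -2.31 in treated PXR-KO animals, below all vehicle animals (at least -0.35). It fell 3.78-fold and 10.4-fold. Ugt2b38, a glucuronosyltransferase, gave log2 -2.43 and -3.16 (SE 0.52), with 1 WT treated animal at -0.47, inside its vehicle range. Hsd3b5, a male-specific steroid reductase, gave -1.66 and -3.35 (SE 0.63). The peroxisomal hydrolase Nudt7 gave -0.61 and -1.36, and the EGF receptor, Egfr, -0.95 and -0.90. The 6 called in each genotype were Elovl3, Slco1a1, Ugt2b38, Cyp2u1, Nudt7 and Egfr. The insulin-sensitizing adipokine Serpina12 was shared by sign (log2 -2.80 and -0.85), but its fall was larger in WT (adjusted p of the difference = 0.00167).

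Sult1e1, the estrogen sulfotransferase, had the largest rise of the female-biased list in PXR-KO livers, while Slco1a4 (above) had the larger rise in WT livers and on average. Treated WT animals stood at 3.63, 2.65, 0.81, 2.18 and 0.62 and treated PXR-KO animals at 6.15, 4.86, 2.68, 4.05 and 2.99, against -0.68 to 0.79 and -0.96 to 0.81 in the vehicle groups, so the WT groups overlap and the PXR-KO groups do not. The fold changes were 3.68 and 18.1 (log2 1.88 and 4.17, SE 0.63, adjusted p = 0.00011). Slco1a4, Atp6v0d2 and the transcriptional coregulator Trim24 (0.48 and 0.69) were the others called in each genotype. Not all of the group moved in common: the sulfotransferase Sult2a2 was at 3.84 in WT and at 0.038 in PXR-KO livers, and 9 of the 22 were called for a difference between genotypes.

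**Figure D3:**
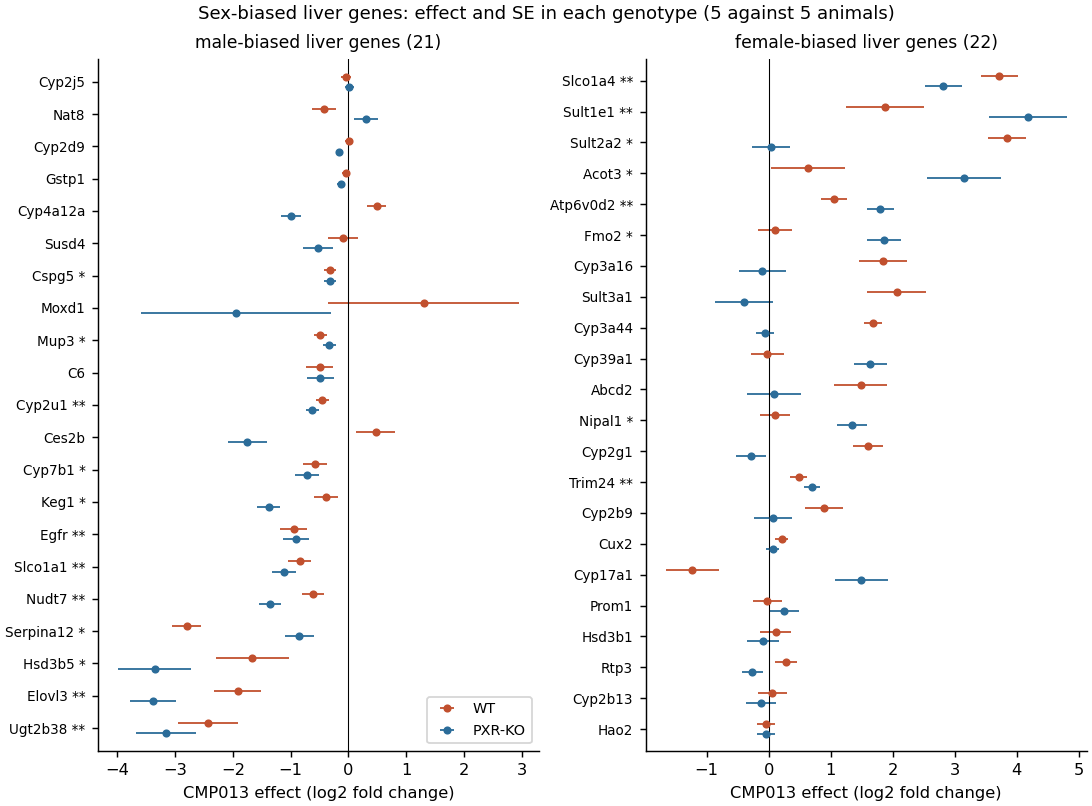
Log2 fold change under CMP013 (x axis) with its SE for 21 male-biased and 22 female-biased liver genes, WT in red and PXR-KO in blue, 5 treated against 5 vehicle animals each. A star marks genes shared on the averaged test (12 male-biased genes lower, 8 female-biased genes higher) and a double star those called in each genotype (6 and 4).

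The growth hormone pathway itself also moved. Of 18 genes measured, 7 were shared and lower and 1 was higher, and the 2 called in each genotype were Ghr, the growth hormone receptor (-0.68 and -0.31), and Stat5b (-0.75 and -0.43, SE 0.098, adjusted p = 1.19e-05). Treated animals stood at -0.87, -0.74, -0.66, -0.52 and -0.92 in WT and at -0.26, -0.42, -0.57, -0.41 and -0.45 in PXR-KO livers for Stat5b, each below all its vehicle animals. Its other probe set gave -0.36 and -0.50 and just missed the averaged test (adjusted p = 0.0513). Ghr fell more in WT livers (adjusted p of the difference = 0.0387). The growth hormone targets Igf1 (-0.80 and -0.0047) and Igfals (-1.20 and -0.0073) passed the averaged test through WT livers, and both were called for a difference. Without the 4 vehicle animals 4 of the 18 were shared and lower and none higher.

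Among enzymes of mitochondrial fatty acid breakdown, amino acid breakdown and glucose output, the shared changes were decreases except at 1 gene. Of 20 genes of mitochondrial beta-oxidation, the chain-shortening of fatty acids in mitochondria, 8 were shared and lower, none higher, and 5 were lower in each genotype (6 shared without the 4 vehicle animals, and 5 without PXR-KO CMP013 replicate 2). Those 5 were Acad8, Acadsb, Acaa2, Etfdh and Acads. Acad8, an acyl-CoA dehydrogenase of valine breakdown, stood at -0.58, -0.68, -0.68, -0.52 and -0.67 in treated WT and at -0.59, -0.62, -0.45, -0.64 and -0.54 in treated PXR-KO animals, and all vehicle animals lay between -0.068 and 0.13. Its log2 fold changes were -0.63 and -0.57 (SE 0.067, adjusted p = 1.99e-07). Acadsb, which acts on short branched chains from isoleucine, gave -1.28 and -0.86 (SE 0.14), the thiolase Acaa2 gave -0.39 and -0.38, Etfdh, which passes electrons on to the respiratory chain, gave -0.67 and -0.31, and the short-chain dehydrogenase Acads gave -0.49 and -0.47. Acad8 and Acadsb belong as much to the breakdown of branched amino acids as to that of fatty acids, while Cpt1a, the entry step for long-chain fatty acids, had opposite signs (-0.44 and 0.14). Peroxisomal genes were divided: of 16, 5 were lower and 3 higher, with none called in each genotype. The 3 higher were the oxidase Acox2 (0.25 and 0.44) and the thioesterases Acot3 (0.63 and 3.15) and Acot4 (0.64 and 1.34), each called in PXR-KO livers and not in WT.

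Of 34 genes of amino acid catabolism and the urea cycle, 15 were shared and lower, 1 was higher (Asl of the urea cycle, 0.33 and 0.12), and 7 were lower in each genotype (10 lower without the 4 vehicle animals). Among those 7, the smallest adjusted p values were those of Cbs, which commits homocysteine to cysteine (-1.07 and -0.55), Haao of tryptophan breakdown (-0.80 and -1.06, SE 0.16), and Hal of histidine breakdown (-0.74 and -0.66). Of 19 genes of gluconeogenesis, glycolysis and the insulin response, 8 were lower and none higher (6 without the 4 vehicle animals), and 3 passed the averaged test with opposite signs. G6pc, the catalytic subunit that releases free glucose, gave -0.98 and -0.99 (SE 0.24, adjusted p = 0.00052), with treated animals at -1.28, -1.57, -0.57, -0.92 and -0.56 in WT and from -2.05 to -0.42 in PXR-KO livers and no vehicle animal below -0.17. Ppp1r3c, which targets a phosphatase to glycogen, gave -1.52 and -1.22. These 2 were the members called in each genotype.

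Subunits of the respiratory chain and ATP synthase were lower by small amounts where they were called. Of 32 measured, 18 were shared and lower, none higher, but only Sdha, a subunit of succinate dehydrogenase, was called in each genotype (-0.25 and -0.33, SE 0.063), and the medians were -0.089 and -0.19. Of the 32, 13 were called in PXR-KO livers and 1 in WT livers. The count of 18 rests on few animals: it was 11 without WT vehicle replicate 3 and 5 without the 4 vehicle animals. Of 17 genes of fatty acid uptake and binding, 7 were lower and 2 higher (5 and 1 without the 4 vehicle animals). The fatty acid binding protein Fabp5 fell mainly in PXR-KO livers (-0.59 and -2.89, adjusted p of the difference = 5.92e-05), and the activating enzyme Acsl3 rose in each genotype (0.94 and 0.74). Of 23 genes of fatty acid synthesis, 5 were shared and lower and 1 higher (3 lower without the 4 vehicle animals), but the genotypes mostly moved apart: 6 were called higher and 2 lower in WT livers, 1 higher and 11 lower in PXR-KO livers, and 9 were called for a difference (medians 0.30 and -0.53). The elongase Elovl5 (-0.97 and -0.81) and Agpat2 of triglyceride assembly (-0.40 and -0.40) were lower in each genotype.

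Of 17 enzymes of cholesterol synthesis, 8 were shared and higher and 1, Ebp, was lower (-0.28 and -0.16). The 3 higher in each genotype were Cyp51, Idi1 and Msmo1. Without the 4 vehicle animals 9 were shared and higher and none lower. Cyp51, the lanosterol demethylase, stood at 0.65, 0.67, 0.52, 0.62 and 0.69 in treated WT and at 0.25, 0.96, 0.99, 0.95 and 0.54 in treated PXR-KO animals, above vehicle animals that reached 0.19 and 0.098. Its log2 fold changes were 0.63 and 0.74 (SE 0.13, adjusted p = 3.55e-05). Idi1, which makes the dimethylallyl unit, gave 0.52 and 0.83, and 1 treated PXR-KO animal, at 0.13, lay within its vehicle group. Msmo1 gave 0.71 and 0.54. The squalene enzymes Sqle (0.95 and 0.30) and Fdft1 (1.09 and 0.43), Mvk (0.69 and 0.43), Lss (0.92 and 0.19) and Hmgcs1 (0.60 and 0.20) were called in WT livers and on average, not in PXR-KO livers. The list median was 0.60 in WT and 0.091 in PXR-KO livers. Mvd (1.35 and -0.20) and Dhcr7 (0.76 and -0.060) had opposite signs, and Mvk's other probe set gave 1.21 and 1.43. The study drew attention to sterol synthesis on these samples, so this list is no independent evidence.

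The sterol regulatory element is the site bound by the SREBP factors that sense cholesterol. It was searched on both strands as TCACNCCAC in the 250 bases upstream of each start site (RefSeq, GRCm38.p6). It was found in 1 of the 14 cholesterol synthesis genes with a promoter in the table and in 1.22% of all 27025 genes. The match was in Hmgcs1, the synthase that makes HMG-CoA, at 137 to 129 bases before the start and in the gene's direction (chr13:119690184-119690252, plus strand). The sequence is given 5′ to 3′ along the gene, as are those below, with the element in capitals:
Hmgcs1: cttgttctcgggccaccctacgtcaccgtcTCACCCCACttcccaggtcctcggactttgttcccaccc
All 5 probe sets of Hmgcs1 were shared and higher, from 0.60 and 0.20 at the probe set used for the list to 3.40 and 1.45 at the highest. The other 13 promoters lack these exact letters in this window, which says nothing about the factor. Sterol-sensing, uptake and export genes were mixed, 2 of 17 higher and 4 lower. Scap, the escort protein that carries SREBP out of the ER, was the member called in each genotype, and it was lower (-0.57 and -0.55, SE 0.11).

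**Figure D4:**
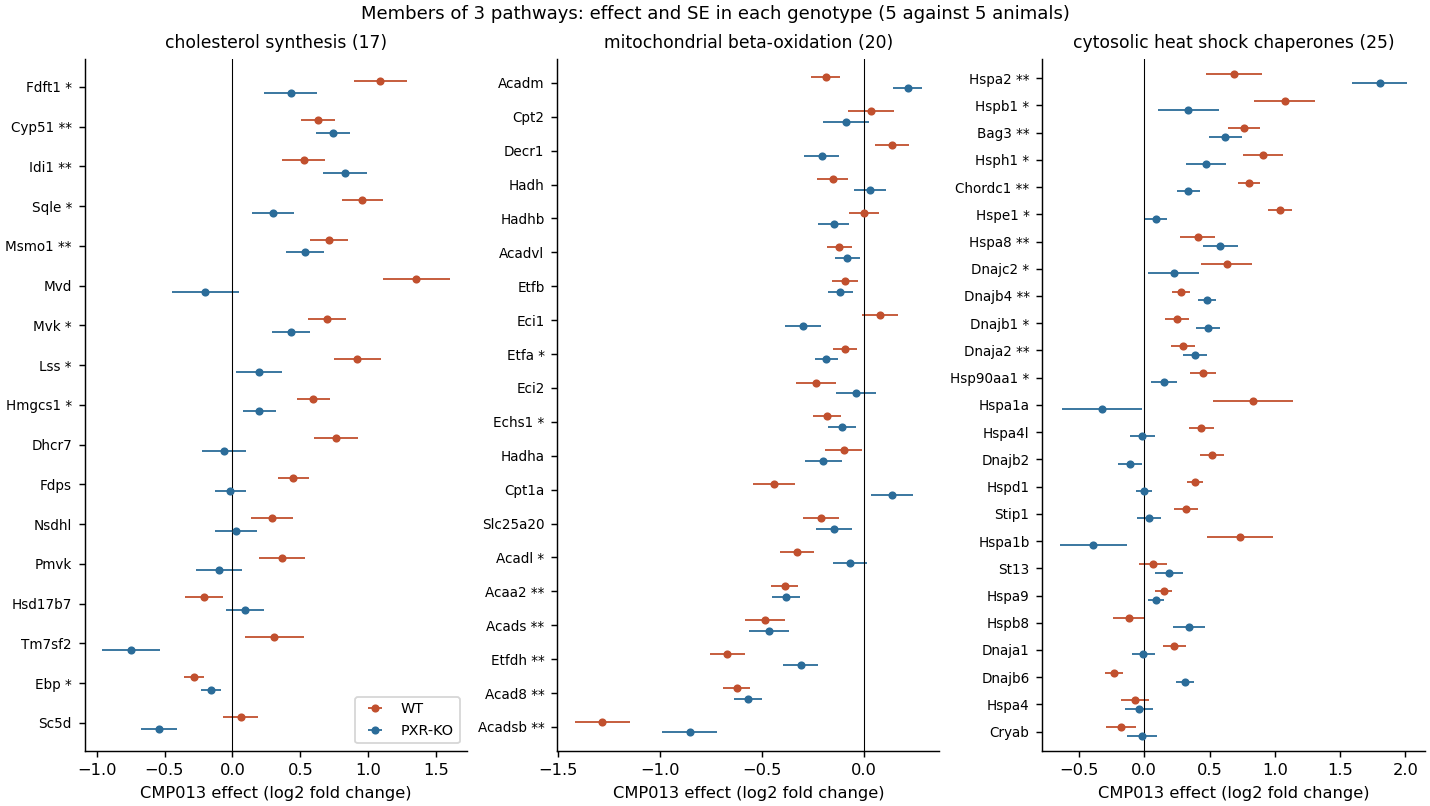
Log2 fold change under CMP013 (x axis) with its SE for members of cholesterol synthesis (17), mitochondrial beta-oxidation (20) and cytosolic heat shock chaperones (25), WT in red and PXR-KO in blue, a star for genes shared on the averaged test and a double star for genes called in each genotype. The genotypes coincide for Cyp51, Acad8, Acaa2 and Acads and part for Mvd, Hspa2 and Hspe1, which is mitochondrial though listed with the cytosolic chaperones.

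The response to oxidants and reactive chemicals was measured by 28 genes of the Nrf2 list. Of these, 15 were shared and higher and 1, Trib3, was lower, and 6 were higher in each genotype (16 higher without the 4 vehicle animals). Nqo1, a quinone reductase, stood at 1.27, 1.49, 1.15, 1.29 and 1.06 in treated WT and at 0.62, 0.82, 0.97, 1.01 and 0.52 in treated PXR-KO animals, against -0.28 to 0.18 and -0.63 to 0.49 under vehicle, with no overlap in either genotype. It rose 2.48-fold and 1.82-fold (adjusted p = 4.32e-06). Txnrd1, thioredoxin reductase, gave 0.35 and 0.51 (SE 0.074), and Gsta2 is described above. The carbonyl reductase Cbr3 (4.58 and 1.17) and the sulfiredoxin Srxn1 (1.88 and 0.56) were called in each genotype but rose more in WT (adjusted p of the difference = 2.99e-05 and 0.000129). The difference was called at 8 of the 15. Another 6 passed the averaged test with opposite signs, among them Gsr (1.88 and -0.021) and Hmox1 (-0.063 and 1.51). Called lower in PXR-KO livers were 4 of the list: Trib3 (-0.31 and -1.27), and the NADPH-producing or pentose phosphate enzymes Pgd (1.15 and -0.45), Me1 (0.50 and -1.66) and Taldo1 (0.29 and -0.35), which were not lower in WT. The study also names this response, so the list is no independent evidence.

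The core of the antioxidant response element, the site read by Nrf2, was searched as TGACNNNGC on both strands. It was present in 5 of the 24 promoters of the list (20.8%) and in 11.5% of all genes. Both genes shown were shared and higher, Txnrd1 about equally in both genotypes and Ugdh, which makes UDP-glucuronic acid for conjugation, mainly in WT (1.29 and 0.29). The core is in capitals, against the gene's direction in Txnrd1 (92 to 84 bases before the start, chr10:82859084-82859152, plus strand) and along it in Ugdh (132 to 124 bases before the start, chr5:65435936-65436004, minus strand):
Txnrd1: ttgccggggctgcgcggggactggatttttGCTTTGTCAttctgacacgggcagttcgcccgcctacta
Ugdh: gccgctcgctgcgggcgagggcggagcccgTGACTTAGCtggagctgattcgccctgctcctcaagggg
Ugdh has another match, against its direction, 94 to 86 bases before the start. These short cores also occur in promoters of genes that were not called, such as Abcc4.

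Cytosolic heat shock chaperones, which hold and refold damaged protein, had 12 of 25 genes shared and higher, none shared and lower, and 6 higher in each genotype (11 shared without the 4 vehicle animals). Another 3 passed the averaged test with opposite signs, and Dnajb6 was called lower in WT and higher in PXR-KO livers (-0.23 and 0.31). Bag3, a partner of Hsp70 in protein clearance, stood at 0.53, 1.12, 0.62, 0.92 and 0.60 in treated WT and at 1.05, 0.53, 0.49, 0.54 and 0.52 in treated PXR-KO animals, above all vehicle animals (at most 0.21). Its log2 fold changes were 0.76 and 0.62 (SE 0.13). Hspa2, an Hsp70 family member, rose more in PXR-KO livers (0.69 and 1.80) and the Hsp90 partner Chordc1 more in WT (0.80 and 0.34), with adjusted p of the difference of 0.0213 and 0.0199. Hspe1, a mitochondrial co-chaperonin counted in this list though not cytosolic, was shared by sign but moved in WT (1.04 and 0.087). The others called in each genotype were Hspa8 (0.41 and 0.58), Dnaja2 (0.30 and 0.39) and Dnajb4 (0.28 and 0.48). The inducible Hsp70 genes Hspa1a (0.83 and -0.32) and Hspa1b (0.73 and -0.39) were not called.

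The proteasome shows why both counts are given. Of 31 subunits, 24 were shared and higher by the averaged test, yet all 31 were called in WT livers and 3 in PXR-KO livers, Psmd13, Psmc3 and Psmd8, and 28 were called for a difference between the genotypes. Psmc4, an ATPase of the regulatory particle, stood at 0.97, 1.17, 0.99, 1.07 and 1.03 in treated WT animals and at 0.067, 0.093, 0.16, 0.021 and 0.17 in treated PXR-KO animals. Its log2 fold changes were 1.05 and 0.096 (SE 0.072). Psmd8 (0.49 and 0.34) was the only subunit of the 3 whose genotypes were not called as different. The aminoacyl-tRNA synthetases, which load amino acids for translation, had 10 of 19 higher and 1 lower by the averaged test and none called in each genotype (6 higher without the 4 vehicle animals). Iars gave 0.52 and 0.30 and the single lower member, Tars, -0.31 and -0.67.

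Of 31 genes of folding and disposal in the endoplasmic reticulum (ER), 7 were shared and higher and 1, Dnajb9, was called in each genotype (1.25 and 0.80, SE 0.22, adjusted p = 0.000141), a co-chaperone of the ER Hsp70 Hspa5. Hspa5 itself, also known as BiP, was not called, with 0.10 and 0.21, and neither was its ER neighbour Hsp90b1 (0.054 and 0.14). The ER stress element, the site through which ATF6 and XBP1 switch on these chaperones, is CCAAT and CCACG set 9 bases apart. It was present on either strand in 10 of the 27 promoters of the list (37%) and in 0.13% of all genes. Of the 10 genes with it, 1 was called, beside 6 of the 27. It was Dnajc3, an inhibitor of the eIF2 kinases, which was higher mainly in PXR-KO livers (0.11 and 0.50). The elements of the called gene and of 2 genes that were not called are shown in capitals, for Dnajc3 at 105 to 87 (chr14:118937797-118937875, plus strand), for Hspa5 at 65 to 47 (chr2:34771995-34772073, plus strand) and for Hsp90b1 at 212 to 194 bases before the start (chr10:86705608-86705686, minus strand):
Dnajc3: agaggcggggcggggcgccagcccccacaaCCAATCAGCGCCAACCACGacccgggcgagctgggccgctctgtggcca
Hspa5: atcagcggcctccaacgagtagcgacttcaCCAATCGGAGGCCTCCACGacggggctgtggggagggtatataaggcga
Hsp90b1: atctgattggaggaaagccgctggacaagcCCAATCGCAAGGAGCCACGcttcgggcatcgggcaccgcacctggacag
Hsp90b1 has another match, against its direction, 107 to 89 bases before the start. Another Hspa5 probe set gave 0.47 and 0.032 and passed the averaged test, so the probe sets of Hspa5 disagree. When the probe sets of each gene were averaged, 11 of the 31 were shared and higher, and under quantile normalization 2.

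Of 28 ER stress sensors and ATF4 and CHOP response genes, 9 were shared and higher and 3 lower, and 3 were higher in each genotype (6 higher without the 4 vehicle animals). Atf3, a stress-induced transcription factor, stood at 0.74, 1.20, 1.10, 0.56 and 1.38 in treated WT animals against -1.03 to 0.62 under vehicle, which overlap by 1 treated animal, and at 2.92, 2.68, 1.96, 2.91 and 1.57 in treated PXR-KO animals, all above the vehicle range of -0.17 to 0.13. It rose 2.14-fold and 5.34-fold (adjusted p = 1.43e-05). Psat1, an enzyme of serine synthesis, rose more in WT (3.10 and 1.04, adjusted p of the difference = 0.000779), and Eif2ak3, the ER stress kinase PERK, gave 0.48 and 0.66. Of 22 p53 and growth arrest genes, 8 were higher and 1 lower. The immediate early genes Ier3 (0.96 and 1.16) and Plk3 (1.19 and 1.48) were called in each genotype, while Fos was at 0.098 in WT and 2.90 in PXR-KO livers. In that list Gadd45b is represented by its probe set with values near 0 and is not counted.

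Of 45 lysosome and autophagy genes, 15 were shared and higher and none lower, and 3 were higher in each genotype (10 shared without the 4 vehicle animals). Within WT livers 10 were called higher and 7 lower, within PXR-KO livers 8 higher and 1 lower, and 23 of the 45 had the same sign in both. Those 3 were Atp6v0d2, a subunit of the proton pump, by its less noisy probe set (1.05 and 1.80), the alpha-galactosidase Gla (0.39 and 0.66, SE 0.12) and the protease cathepsin D, Ctsd (0.76 and 0.23, larger in WT, adjusted p of the difference = 0.00109). The core of the lysosomal element, TCACGTGA, which reads the same on both strands, was present in 5 of the 37 promoters of the list (13.5%) and in 0.907% of all genes. Of those 5 genes 3, Atp6v1a, Ctsd and Gla, were shared and higher, beside 13 of the 37. Of 16 genes around BACE1, the intended target, 4 were shared and lower and 1 higher (3 and none without the 4 vehicle animals), and none was called in each genotype. Bace1 itself was at -0.38 and -0.26 (SE 0.10, adjusted p = 0.00437).

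Drug-handling genes, the usual targets of PXR, included shared changes in both directions, beside 8.45% of all genes higher and 8.27% lower. The counts on the CAR and PXR list were near those shares. Of 20 P450 and related genes of the CAR and PXR list, 2 were higher, Cyp3a13 (0.39 and 0.64) and Cyp2c39 (0.97 and 0.91), and 1 was lower, Cyp2c37 (-0.94 and -0.53). All 3 were called in each genotype. Another 6 of the list passed the averaged test with opposite signs. The Cyp2c genes are close in sequence and their probe sets can share signal. Among 25 other P450 and flavin monooxygenase genes 3 were higher and 7 lower, among 33 conjugating enzymes 5 higher and 7 lower, and among 25 esterases and dehydrogenases 2 higher and 6 lower (none higher without the 4 vehicle animals).

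Transporters at both faces of the hepatocyte were likewise divided. Of 17 bile acid and organic ion transporters, 4 were higher and 3 lower, and of these 3 and 2 were called in each genotype (5 lower without PXR-KO CMP013 replicate 5). The efflux pump Abcb1a stood at 1.56, 2.17, 1.11, 1.59 and 1.70 in treated WT and at 0.57, 0.75, 1.00, 1.11 and 0.96 in treated PXR-KO animals, against -0.33 to 0.46 and -0.22 to 0.54 under vehicle (log2 fold changes 1.66 and 0.90, SE 0.19). Abcc3, which exports conjugates to blood, gave 1.28 and 0.42, larger in WT (adjusted p of the difference = 0.00067). The uptake carriers Slco1a1 (-0.84 and -1.11) and Slc22a7 (-1.12 and -1.40) were lower in each genotype. Of 16 bile acid synthesis genes 6 were lower and 1 higher, none in each genotype. The higher gene, Akr1d1, moved in WT livers (1.47 and 0.0024, adjusted p of the difference = 2.35e-05). Klb was the 1 lower gene whose genotypes differed by the test (-1.01 and -0.15, adjusted p of the difference = 0.0249). With opposite signs, 2 passed the averaged test: Cyp8b1 (0.23 and -0.94) and Cyp39a1 (-0.026 and 1.64). The PXR-KO effect of both was called, the WT effect of neither. Of 16 steroid hormone genes 5 were lower and 2 higher, among them Sdr42e1 (-1.22 and -0.54), lower in each genotype.

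Markers of other liver cells moved as well, and their part in the changes above was not tested. Of 18 sinusoidal endothelial markers 11 were shared and lower and none higher (11 without the 4 vehicle animals). Oit3 (-0.61 and -0.43) and the VEGF receptor Kdr (-0.48 and -0.41, SE 0.091) were lower in each genotype, and the medians over the 18 were -0.35 and -0.22. Of 13 hepatocyte markers 2 were lower and none higher, with medians of -0.10 and -0.12 (no member called without the 4 vehicle animals). Of 23 Kupffer cell and macrophage markers 6 were higher and 2 lower (5 and 1 without those animals), and 5 of the 6 were called for a difference, with the larger rise in PXR-KO livers. Those 5 were Mmp12, Lgals3 (0.54 and 2.09), Cd68 (0.19 and 1.11), Gpnmb (0.37 and 1.88) and Marco (0.10 and 4.22). The resident Kupffer marker Clec4f was lower (-0.39 and -0.28). Of 20 stellate cell and collagen markers 3 were lower and none higher, with the matrix protein Lum lower in each genotype (-0.66 and -0.60).

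Of 29 interferon and antigen presentation genes, 5 were shared and higher and 5 lower (3 higher without the 4 vehicle animals, and 3 also without WT vehicle replicate 3 or 5, WT CMP013 replicate 3 or PXR-KO vehicle replicate 5), and in WT livers 13 were called higher and 5 lower. The 3 called in each genotype were lower, and all belong to class II antigen presentation, a theme noted after their values were seen. The chains H2-Aa (-1.18 and -1.13, SE 0.24) and H2-Ab1 (-1.20 and -1.09) and the invariant chain Cd74 (-1.03 and -0.93) were lower in each genotype, and the chain H2-Eb1 (-0.92 and -0.74) and the immunoproteasome subunit Psmb9 (-0.19 and -0.67) were the others shared and lower. For H2-Aa treated animals stood at -1.18, -1.36, -1.01, -1.56 and -0.90 in WT and at -2.14, -0.91, -0.93, -0.93 and -0.65 in PXR-KO livers, with no vehicle animal below -0.30. The difference between genotypes was -0.054 ± 0.34 (SE). Among 17 neutrophil, lymphocyte and red cell markers 2 were higher, S100a8 (1.12 and 2.08) and S100a9 (1.12 and 2.05), and 4 lower, including Alas2 of red cell heme synthesis (-1.07 and -1.71) and Cd4 (-0.70 and -1.23). The B cell marker Ms4a1 was also lower (-0.59 and -0.45), as was the globin Hbb-b2 (-0.17 and -0.71). Other markers of the same cells were not called on average: the B cell genes Cd79a (-0.33 and -0.15) and Cd79b (-0.30 and -0.016), the T cell gene Cd3e, called higher in PXR-KO livers (-0.32 and 0.93), and the globin Hba-a1, called higher in WT livers (0.56 and -0.14). Without the 4 vehicle animals 1 of the 17 was shared and higher and 2 were lower.

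Of 22 acute phase proteins measured, 5 were shared and higher and 2 lower, and 4 of the 5 were higher in each genotype: Orm3, Orm2 (1.33 and 1.22), the interleukin 1 receptor antagonist Il1rn (0.78 and 1.32) and serum amyloid P, Apcs (0.84 and 0.63). Lcn2, an iron-binding lipocalin, was the other (1.26 and 3.15). Neither lower member was called without the 4 vehicle animals. In WT livers 4 of the 22 were called higher and 9 lower, in PXR-KO livers 8 higher and none lower, and 10 were called for a difference (medians -0.23 and 0.28). The serum amyloid A genes Saa1 (-1.44 and 1.20) and Saa2 (-0.91 and 1.00) had opposite signs and were not called on average, and Saa1 was called lower in WT livers. Of 27 coagulation and complement genes 10 were lower and 1 higher, none in each genotype (5 lower without the 4 vehicle animals). The keratins of the hepatocyte skeleton rose in both genotypes. Krt8 stood at 0.75, 0.78, 0.88, 0.84 and 0.75 in treated WT and at 0.71, 1.14, 0.53, 0.94 and 0.45 in treated PXR-KO animals, above all vehicle animals (at most 0.13). Krt8 (0.80 and 0.76, SE 0.11) and Krt18 (0.80 and 0.78) were the 2 of 16 biliary and fetal markers called in each genotype. Of the 16, 3 were shared and higher and 1 lower. The other higher member, Afp, moved in WT livers (1.53 and 0.026, adjusted p of the difference = 0.0062). The lower member was also a keratin, Krt23 (-1.07 and -0.33), and the keratins Krt7 and Krt19 were not called on average.

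Of 25 G1/S genes 6 were higher and 3 lower, with Ccne2 higher (0.67 and 0.58) and Mcm10 lower (-0.81 and -1.28) in each genotype (3 higher when PXR-KO CMP013 replicate 4 was left out, 10 when PXR-KO vehicle replicate 1 was, and 3 without the 4 vehicle animals). Of 24 G2/M genes 1, the mitotic kinase Aurka, was higher (1.33 and 0.22), and it was not called without the 4 vehicle animals. Of 19 clock genes 2 were higher and 4 lower, with Clock lower in each genotype (-0.59 and -1.10). Of 23 iron and heme genes 5 were higher and 2 lower (4 and 1 without the 4 vehicle animals), with the transferrin receptor Tfrc (1.37 and 0.64) and the biliverdin reductase Blvrb (1.37 and 0.35) higher in each genotype and more so in WT. Of 21 cytosolic ribosomal proteins 5 were higher (1 without the 4 vehicle animals, and 3 without WT vehicle replicate 1, 3 or 4, PXR-KO vehicle replicate 2 or 3, or PXR-KO CMP013 replicate 1). Of 17 core antioxidant enzymes 3 were higher and 1 lower, of 17 PPAR alpha and fasting genes 2 higher and 1 lower (none without the 4 vehicle animals), and of 19 apolipoprotein genes 3 lower. None of these last 4 groups had a member called in each genotype. Over all 45 lists, with each gene counted once, 182 genes were shared and higher and 181 lower. The lists hold 1054 distinct genes, not all of them measured, and the shares over all genes were 8.45% and 8.27%. The lists were chosen with earlier results of these data known, so these counts are no independent evidence.

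**Figure D5:**
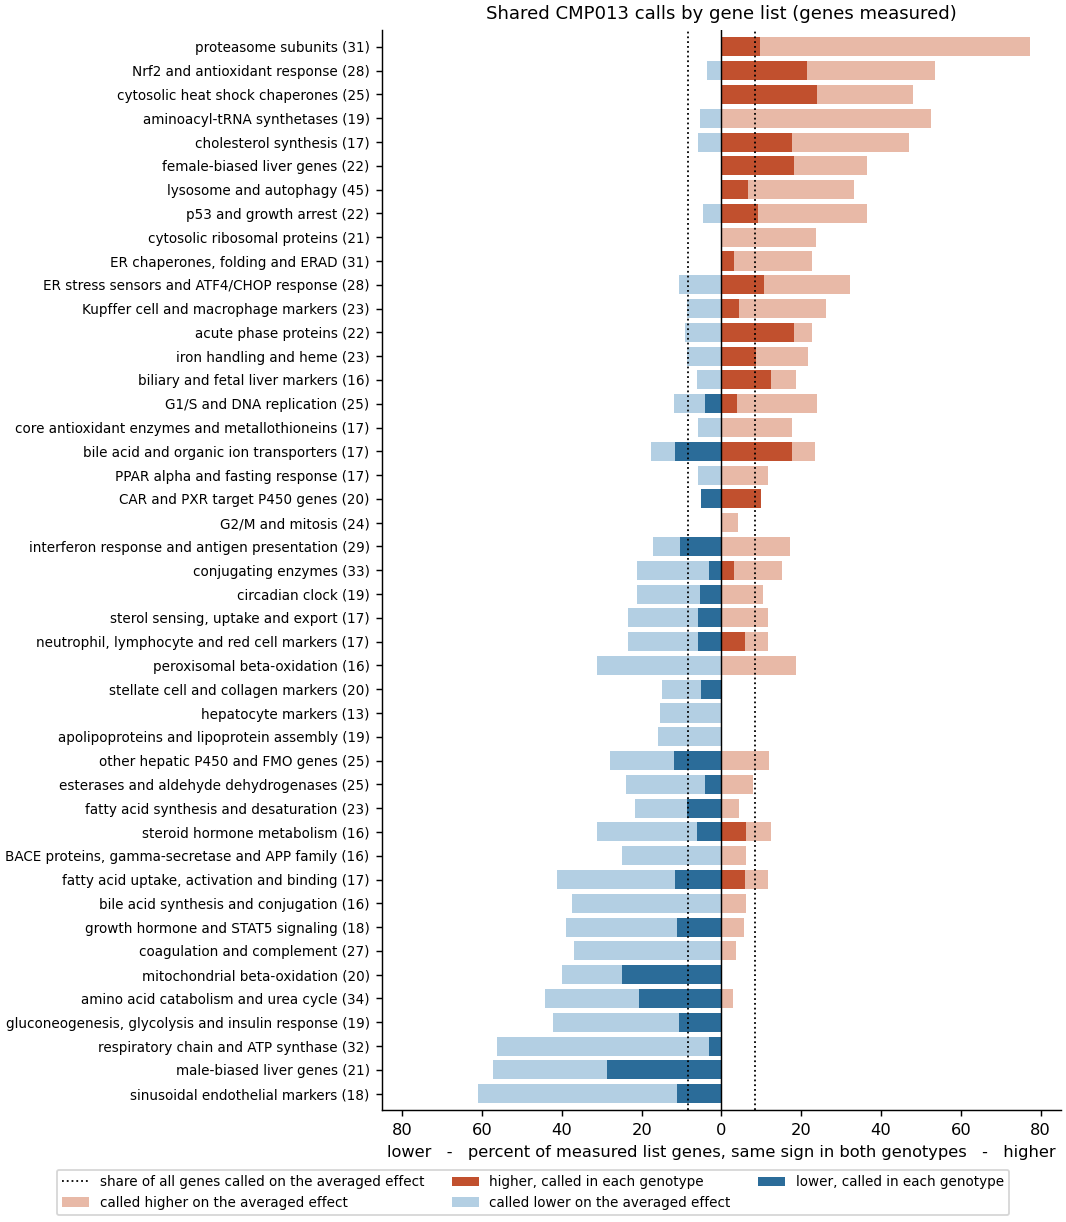
Percent of the measured genes of each list that were shared and higher (right, red) or shared and lower (left, blue) under CMP013, with the part called in each genotype in the dark colour and the share over all genes as dotted lines (8.45% higher, 8.27% lower). Proteasome and aminoacyl-tRNA synthetase genes have long pale bars with little or no dark part, while male-biased genes and mitochondrial beta-oxidation have the longest dark parts on the left and heat shock and Nrf2 genes on the right.

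Of 50 genes that the study names in its text, 45 had a probe set of their own. Of these 24 were shared and higher and 10 lower, 9 and 5 in each genotype, and 5 passed the averaged test with opposite signs. They were picked on these samples and are no independent evidence.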

How the data were processed

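Liver RNA of 20 mice was measured on Affymetrix mouse genome arrays, 1 array per animal. The authors deposited, for 45037 probe sets, the log10 ratio of each animal's intensity over the average of its genotype's 5 vehicle animals, made in Rosetta Resolver; the scaling of intensities before the ratio is not described in the paper or labels. Intensities were not used here, so arrays cannot be ranked by signal, and the number of arrays limits the precision. The ratio to a genotype's own vehicle mean removes any difference between genotypes under vehicle. Of the values, 7 lie at the limit of the scale, a log10 ratio of 2 in size. Array medians on the log2 scale were between -0.0275 and 0.0117, and array standard deviations were 0.334 to 0.463 for vehicle and 0.467 to 0.704 for CMP013.

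Ratios were converted to log2 and fitted with limma 3.58.1 in R 4.3.3, with 4 group means over all 20 arrays. Contrasts were the averaged effect of CMP013, the effect in each genotype and their difference, each with Benjamini-Hochberg adjustment over all 45037 probe sets and a threshold of 0.05. The code was tested on simulated data of 45037 probe sets for the averaged effect, where 78% of changes of 1 log2 unit and 99% of changes of 2 log2 units were recovered, with 7 false calls. The simulated noise was normal and independent between probe sets, with no animals that stand apart. These figures therefore test the code and do not measure false calls in the real arrays. Same-numbered animals of vehicle and CMP013 groups did not deviate together (correlations of -0.242 to 0.0651), so the numbers name animals and pair none.

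Of the probe sets, 34945 name 1 gene in the platform annotation, 932 several and 9160 none, and none was named from a probe set with several. Each gene in a list is represented by 1 probe set, chosen for specificity and then for the smallest spread under vehicle. The 45 lists hold 1054 distinct genes, and 113 list members have no probe set of their own. The members and lists were chosen with earlier results of these data known. Named genes are the 15 highest and 15 lowest by the smaller genotype effect among shared, non-overlapping probe sets. The rule adds up to 4 members per list with the smallest adjusted p, and genes the study names. Its last part allows the members of a count of 5 or fewer to be named, which was done for some counts only. Dnajc3, Ebp, Egfr, Hspa1a, Hspa1b, Hspa5, Hsp90b1, Hspa8, Dnajb4, Saa1, Saa2, Orm2, Psmd8, Slc22a7, Slco1a1, Trim24, H2-Eb1, Marco, Clec4f, Ms4a1, Hbb-b2, Acox2, Acot3, Asl, Cd3e, Cd79a, Cd79b, Dnajb6, Hba-a1, Me1, Pgd, Psmb9, Taldo1 and Trib3 fall outside the first 3 parts of that rule, and their naming followed their values. The same holds for Cyp39a1, Krt7 and Krt19. Promoter windows are from RefSeq (GRCm38.p6). Alternatives were median and quantile scaling, the replicate number as a block, trended variances, array weights, an additive model, separate fits, a size threshold, a noise filter, the mean over probe sets and leaving out each animal, and, chosen after seeing the data, leaving out the 4 vehicle animals that stood apart.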

Additional observations from a re-analysis of the deposited data

Results flagged for a closer look

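For 168 of the probe sets whose values are given above, 672 groups of 5 animals were examined for 1 animal far from the other 4. Those of Akr1d1, Klb, Cyp8b1, Cyp39a1, Afp and Krt23 were not included. The measure was the gap to the nearest animal as a share of the group's whole range. The share was above 0.71 in 30 groups, and chance gives such a gap in about 1 of 20 groups, so the number by itself is about what chance gives. In this list the end of the range and the share stand in parentheses. WT vehicle replicate 1 stood apart for Abcc3 (highest, 0.891) and a lesser probe set of Gadd45b (lowest, 0.714). WT vehicle replicate 2 stood apart for Cnmd (lowest, 0.842), Slco1a4 (lowest, 0.807) and the other probe set of Stat5b (highest, 0.728). WT vehicle replicate 3 stood apart for Acad8 (highest, 0.757). WT vehicle replicate 5 stood apart for Dhcr7 (lowest, 0.723), the list probe set of Hmgcs1 (lowest, 0.886), Krt18 (lowest, 0.734), Krt8 (lowest, 0.743) and Sult2a2 (lowest, 0.75). WT CMP013 replicate 1 stood apart for Ptgds (lowest, 0.718). WT CMP013 replicate 2 stood apart for Ebp (lowest, 0.844). WT CMP013 replicate 4 stood apart for Marco (highest, 0.737). WT CMP013 replicate 5 stood apart for the Gadd45b probe set with values near 0 (highest, 0.738) and the Zfp36l2 probe set that fell (highest, 0.732). PXR-KO vehicle replicate 1 stood apart for Abcb1a (highest, 0.779). PXR-KO vehicle replicate 4 stood apart for Apcs (highest, 0.748), Hspa1a (lowest, 0.726), Lcn2 (highest, 0.895) and Saa2 (highest, 0.819). PXR-KO CMP013 replicate 1 stood apart for Bag3 (highest, 0.915), H2-Aa (lowest, 0.809), Hspa1b (lowest, 0.718), Lss (lowest, 0.752), Saa1 (highest, 0.715) and Saa2 (highest, 0.792). PXR-KO CMP013 replicate 4 stood apart for Cd4 (lowest, 0.886) and a Zfp36l2 probe set that was not called (highest, 0.734). PXR-KO CMP013 replicate 5 stood apart for Trim24 (lowest, 0.828). PXR-KO CMP013 replicate 1 appears for 6 probe sets, among them Bag3, where it stood at 1.05 log2 units against at most 0.54 in the rest of its group, and H2-Aa, where it stood at -2.14 against at least -0.93. PXR-KO vehicle replicate 4 appears for 4, the acute phase genes Lcn2, Saa2 and Apcs at the highest end and Hspa1a at the lowest. WT vehicle replicate 5 was the lowest of its group for all 5 of its probe sets.

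The effect of CMP013 differed between the genotypes, by limma's test of the difference, for 39 of the 168 probe sets, with the WT minus PXR-KO log2 difference in parentheses. The groups below go by the sign of each effect alone. Some of these effects were close to no change, such as those of Igf1, Igfals and Sult2a2 in PXR-KO livers and Fos in WT livers. Positive in both genotypes and larger in WT livers were Abcc3 (0.86), Blvrb (1.02), Cbr3 (3.41), Chordc1 (0.47), Ctsd (0.53), the highest probe set of Hmgcs1 (1.94), the called probe set of Hspa5 (0.44), Hspe1 (0.95), Psat1 (2.06), Psmc4 (0.95), Srxn1 (1.32), Sult2a2 (3.80), Tfrc (0.73) and Ugdh (1.01). Positive in both and larger in PXR-KO livers were Cd68 (-0.92), Fos (-2.80), Gpnmb (-1.50), Hspa2 (-1.12), Lgals3 (-1.56), Marco (-4.11) and Mmp12 (-3.02). Negative in both and larger in size in WT livers were Ghr (-0.37), Igf1 (-0.80), Igfals (-1.19), Sdr42e1 (-0.67) and Serpina12 (-1.95). Negative in both and larger in size in PXR-KO livers was Fabp5 (2.30). The genotypes had opposite signs for Cd3e (-1.26), Cpt1a (-0.58), Dhcr7 (0.82), Dnajb6 (-0.54), Gsr (1.90), Hba-a1 (0.69), Hmox1 (-1.57), Me1 (2.16), Mvd (1.55), Pgd (1.60), Saa1 (-2.65) and Taldo1 (0.63). For these genes the averaged value describes neither genotype closely.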

How the results depend on the processing

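Of 208 named probe sets called with the same sign, none reversed its direction in any of 27 other fits. Of these, 170 kept the call in all 27 and 38 lost it in at least 1. Reversal was not examined for named probe sets that were not called. Quantile normalization of the arrays called 2824 probe sets on average in place of 6915, 2579 with a shared sign (1317 higher, 1262 lower) and 237 in each genotype (113 higher, 124 lower), and 119 list genes lower in place of 181. Under it 4 of 32 respiratory chain, 8 of 45 lysosomal, 4 of 19 synthetase, 5 of 17 sterol synthesis, 5 of 20 beta-oxidation and 7 of 18 endothelial genes were called. This setting gives every array the same distribution of ratios. As deposited, array standard deviations were 0.334 to 0.463 for vehicle and 0.467 to 0.704 for CMP013. How far this lowered the counts was not tested. Without the 4 vehicle animals, a fit with fewer animals, 4479 were called on average, 3994 shared (1999 higher, 1995 lower) and 268 in each genotype (142 higher, 126 lower). Fitting the genotypes apart left 449 called in each (229 higher, 220 lower). Asking for an averaged change of at least 1.5-fold left by construction 1902 calls, 1723 shared (970 higher, 753 lower). Leaving out each animal in turn gave 6011 to 6978 averaged calls, 5232 to 6134 shared (2754 to 3348 higher, 2433 to 2786 lower), 568 to 868 in each genotype (294 to 470 higher, 274 to 428 lower), and 167 to 189 list genes higher and 163 to 184 lower. The 294 came without PXR-KO CMP013 replicate 4. With the replicate number as a block, in a design whose numbers pair no animals and where no animal correlated best with its own number, 5956 were called on average, 5242 shared (2793 higher, 2449 lower) and 649 in each genotype (346 higher, 303 lower), with 168 list genes higher and 161 lower. The respiratory chain count was then 9 and that of beta-oxidation 5, and under the additive model, which gives no calls by genotype, 11 and 5, with 4 of 31 ER chaperones in place of 7. The remaining alternatives kept the counts over all probe sets and over all list genes within 1.5-fold where they give them. Small fold changes, such as those of the respiratory chain, and list counts of 3 or fewer are where 5 animals a group give the least.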
